A study of Oryza sativa with 3 samples.

Results

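The centromere cores of rice were taken as the 12 stretches of 1 Mb, 1 on each chromosome, that lie within 0.5 Mb of an approximate midpoint of the centromere. Together they covered 12 Mb of the 372.1 Mb genome (3.23%). They held 690076 of 26516807 single-end MNase-seq reads (2.60%) and 120074 of 3456855 nucleosome calls (3.47%). Each core was compared with the rest of its own chromosome. All material was leaf tissue of 2-week-old seedlings of the rice cultivar Nipponbare, and no other genotype, stage or treatment was included. Chromatin was digested with micrococcal nuclease (MNase), which cuts the linker DNA between nucleosomes, and the mono-nucleosomal DNA was isolated from a gel. The single-end reads were of biological replicate 1, sequenced as 2 technical replicates whose reads were deposited together. The nucleosome calls were of biological replicate 2, sequenced as read pairs.

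A centromere is the part of a chromosome at which the kinetochore assembles and spindle fibres attach. Its chromatin carries CENH3, a variant of histone H3, in a share of the nucleosomes. In rice, centromeres are built of the satellite repeat CentO, whose unit is slightly longer than the DNA of a nucleosome core, and of CRR retrotransposons. The array of satellite differs in size between chromosomes, and functional rice centromeres can also hold unique sequence and active genes. Neither CENH3 nor a repeat was measured in these libraries, so a core is here a position on a chromosome. The genome sequence of this build was not used here, and what sequence a stretch holds is therefore not given.

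The 12 chromosomes outside the cores held 68.1 to 77.9 reads per kb and 9.23 to 9.33 calls per kb. With 1 library in each form there was no replicate error and no test between conditions. Errors below are SD over chromosomes or over bins of 1 library, and intervals are exact Poisson intervals (95%) that cover counting error only. The reads carried no molecular identifiers, so copies made by PCR count more than once. As a background, each chromosome was tiled from its start with 1-Mb windows. Each window was compared with the same sequence as the core, all of the chromosome outside the core, which includes the window itself. Windows that touched a core were left out, so that the 342 windows used do not cover all sequence next to the cores. A second set of 348 windows, tiled outward from both edges of each core, was added after the data had been seen and covers that sequence.

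Centromere cores held fewer single-end reads and more nucleosome calls than the rest of the same chromosome, on all 12 chromosomes. Read density averaged 57.5 ± 4.89 reads per kb in the cores and 71.4 ± 2.94 reads per kb in the rest (SD, 12 chromosomes). The log2 ratio of core to rest averaged -0.32 ± 0.11, and the median ratio of core to rest was 0.799. Call density averaged 10.01 ± 0.240 calls per kb in the cores and 9.27 ± 0.0265 calls per kb in the rest, with a median ratio of 1.08. The 2 measures come from different plants and different libraries.

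The lowest read densities were in the cores of chromosomes 7 and 5. Chromosome 7 had 50.7 reads per kb in the core (50.2 to 51.1), against 70.3 in the rest. Chromosome 5 had 50.8 reads per kb in the core (50.4 to 51.3), against 69.8 in the rest. These intervals overlapped. Both cores held less than 0.75 of the read density of the rest of their chromosome, as did the core of chromosome 3 (0.744). The core of chromosome 8 was next in read density, with 53.1 reads per kb (52.6 to 53.5), against 69.1 in the rest. Chromosome 12 had 54.8 reads per kb in the core (54.4 to 55.3), against 68.1 in the rest. Chromosome 4 had 55.4 reads per kb in the core (54.9 to 55.8), against 69.9 in the rest. The intervals of chromosomes 12 and 4 overlapped each other and no other core.

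A middle group of 4 cores had overlapping intervals from neighbour to neighbour. Chromosome 1 had 57.6 reads per kb in the core (57.1 to 58.1) and 73.7 in the rest. Chromosome 3 had 58.0 reads per kb in the core (57.5 to 58.5) and 77.9 in the rest, which was the highest density outside a core. Chromosome 9 had 58.3 reads per kb in the core (57.8 to 58.8) and 71.7 in the rest. The interval of chromosome 10 overlapped those of all 3, with 58.5 reads per kb in the core (58.0 to 59.0) and 69.9 in the rest. The remaining cores, of chromosomes 6, 2 and 11, were the closest in level to the chromosome arms. Chromosome 6 had 63.9 reads per kb in the core (63.4 to 64.4), against 70.2 in the rest. Chromosome 2 had 64.3 reads per kb in the core (63.8 to 64.8), against 75.9 in the rest. Chromosome 11 had 64.7 reads per kb in the core (64.2 to 65.2), against 70.5 in the rest.

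Of the 342 windows outside the cores, 43.0% were also lower in read density than the rest of their chromosome, and the SD of the log2 ratio over windows was 0.18. A core was lower than every window of its chromosome on 3 chromosomes, 3, 7 and 9, and on 1 chromosome with windows tiled from the core edges. With the first set, on the other chromosomes, between 1 and 4 windows had fewer reads than the core. The lowest 1-Mb stretch of a chromosome had its middle within 0.5 Mb of the midpoint on 2 of 12 chromosomes. A read density as low as that of the cores was therefore also found away from the centromere.

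**Figure D1:**
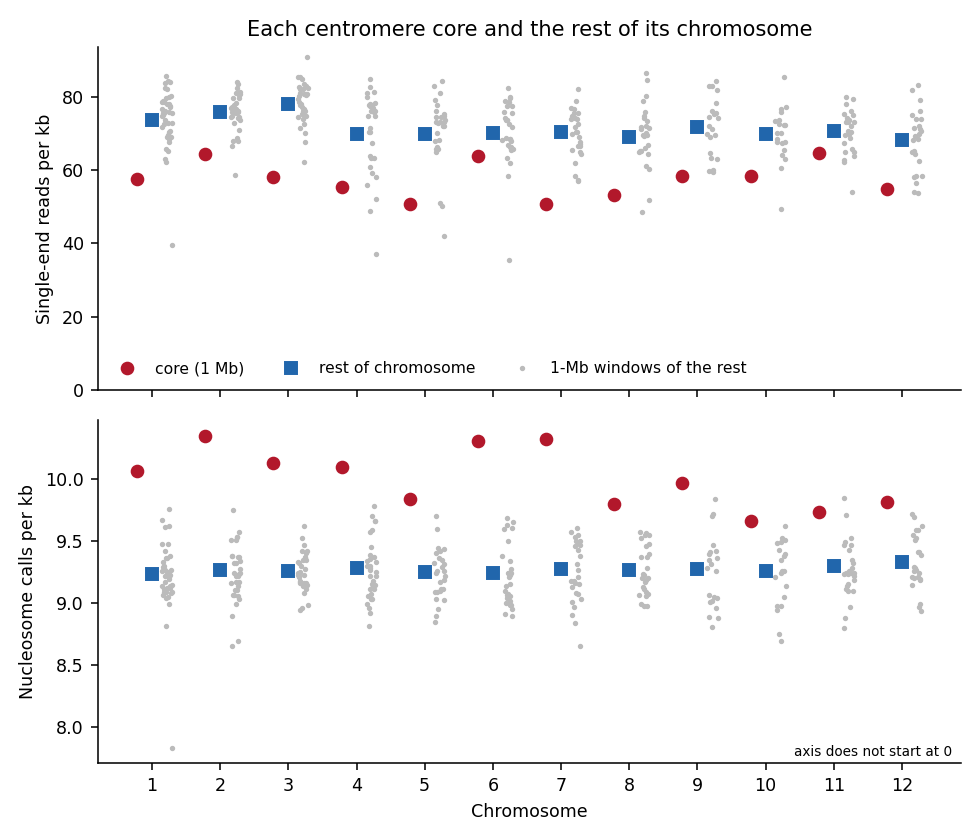
Single-end reads per kb (top) and nucleosome calls per kb (bottom, axis not from 0) for the core, the rest of the chromosome and each 1-Mb window that does not touch the core, by chromosome. The cores lie between 50.7 and 64.7 reads per kb and between 9.66 and 10.3 calls per kb, below and above the rest on each of the 12 chromosomes.

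Call density separated the cores from other windows more clearly than read density did. The cores of chromosomes 2, 7 and 6 had the most calls, each with 10.3 calls per kb, against 9.26, 9.27 and 9.25 in the rest of those chromosomes. Chromosome 3 and chromosome 4 had 10.1 calls per kb each in the core, against 9.26 and 9.28 in the rest. Chromosome 1 had 10.1 calls per kb in the core and 9.23 in the rest, and chromosome 9 had 9.97 in the core and 9.27 in the rest. In these 7 cores the excess over the rest was between 1.08-fold and 1.12-fold. The other cores were closer to the rest, by 1.04-fold to 1.06-fold. The core had 9.84 calls per kb on chromosome 5, against 9.25 in the rest, and 9.82 on chromosome 12, against 9.33 in the rest. It had 9.80 calls per kb on chromosome 8, against 9.27 in the rest, and 9.73 on chromosome 11, against 9.30 in the rest. Chromosome 10 had the fewest calls of all cores, 9.66 per kb, against 9.26 in the rest.

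Of the windows outside the cores, 42.7% had more calls per kb than the rest of their chromosome. A core was higher than every window of its chromosome on 11 of 12 chromosomes. The exception was chromosome 11, where 1 of 26 windows was higher. With windows tiled from the core edges it was higher on 9, with a higher window on chromosomes 1, 10 and 11. When a 1-Mb stretch was moved along each chromosome in steps, the stretch with the most calls had its middle within 0.5 Mb of the midpoint on 11 chromosomes, and within 1 Mb on all 12. On chromosome 1 its middle was at the edge of the core, 0.5 Mb from the midpoint, and it held 10.6 calls per kb, more than the core (10.1). On chromosome 6 its middle was at the midpoint, and on chromosome 10 it lay farthest away, by 0.7 Mb. The greater number came from calls that overlapped each other. Calls that overlapped no other call were fewer in the cores, 0.600 per kb against 0.775 per kb in the rest, and were lower in all 12 cores. The share of windows with fewer such calls was not computed.

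Both measures were farthest from the level of the rest next to the midpoint, when 100-kb bins were averaged over the chromosomes. In the bin just above the midpoint there were 44.5 ± 26.0 reads per kb and 10.6 ± 0.957 calls per kb (SD, 12 chromosomes). In the next bin there were 52.2 ± 17.9 reads per kb and 10.6 ± 0.808 calls per kb. At the edges of the cores the means were 60.5 and 57.9 reads per kb, and 9.56 and 9.98 calls per kb. The flanks, from 0.5 to 2.5 Mb on both sides of the midpoint, lay between the cores and the arms beyond them. The cores had 57.5 reads and 10.01 calls per kb, the flanks had 64.1 reads and 9.54 calls per kb, and the arms had 72.9 reads and 9.23 calls per kb. The core had fewer reads per kb than its flanks on 11 chromosomes and more calls per kb on 12.

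**Figure D2:**
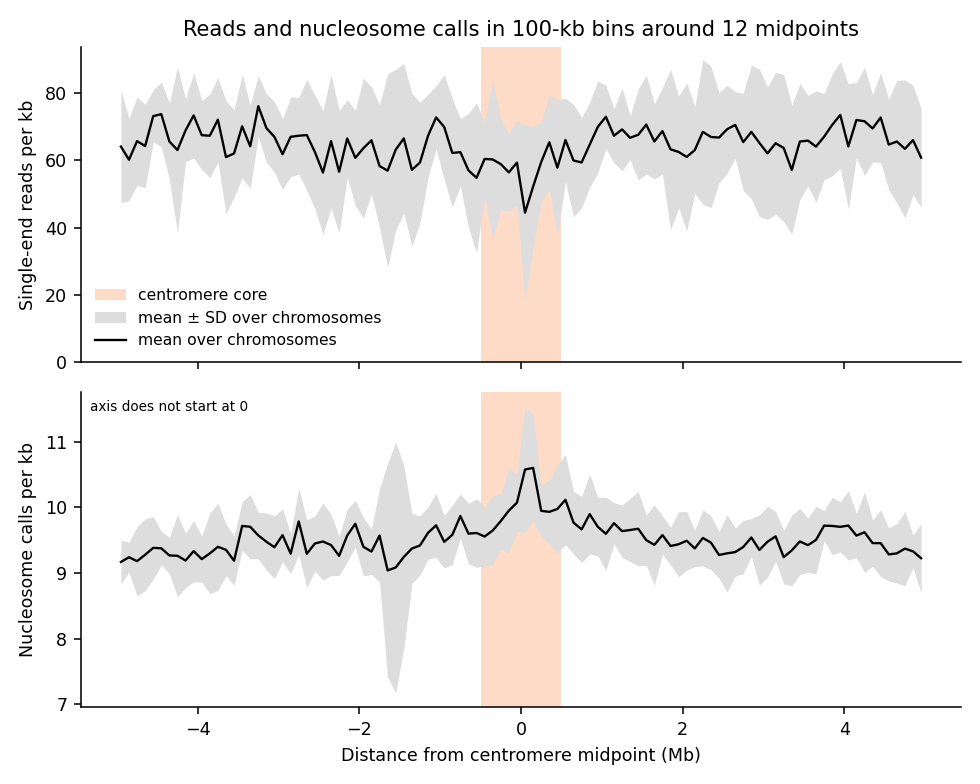
Mean single-end reads per kb (top) and nucleosome calls per kb (bottom, axis not from 0) in 100-kb bins by distance from the centromere midpoint, with SD over chromosomes in grey and the core shaded. Reads have their lowest mean (44.5 per kb) and calls reach 10.6 per kb in the bin just above the midpoint.

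Bins of the cores held more calls than bins of the rest with the same number of reads. The cores were divided into 1200 bins of 10 kb, and bins of cores and rest were grouped by how many single-end reads they held. In each of the 7 groups, the core bins held more calls on average. Bins with fewer than 100 reads held 104 ± 18.9 calls in the cores (97 bins) and 84.8 ± 17.8 calls in the rest (1101 bins; SD over bins). Bins with 600 to under 800 reads held 99.9 ± 10.5 calls in the cores (282 bins) and 89.99 ± 10.8 calls in the rest (10145 bins). At 1000 reads or more the difference was the smallest, with 107 ± 7.73 calls in the cores (105 bins) and 102 ± 8.31 calls in the rest (5347 bins). In the rest, bins with fewer than 100 reads had the fewest calls of any group. In the cores they had more calls than bins with 100 to under 800 reads.

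**Figure D3:**
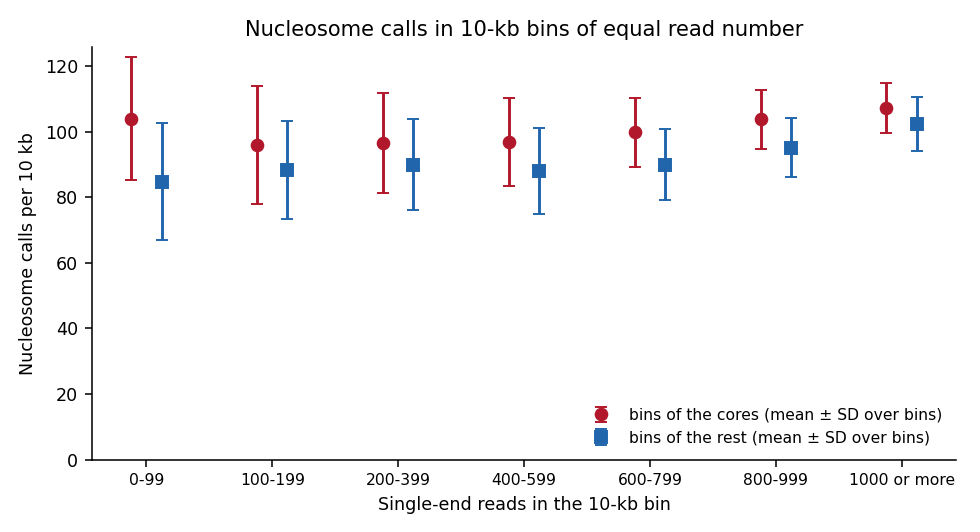
Nucleosome calls per 10 kb (mean and SD over bins) in bins of the cores and of the rest, grouped by the number of single-end reads in the bin. Core bins have the higher mean in each of the 7 groups, and the gap is widest (104 against 84.8 calls) in bins with fewer than 100 reads.

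Reads were distributed unevenly inside a core. Bins of 1 kb without a single read made up a median of 4.20% of a core and 2.32% of the rest. The share was higher in 10 of 12 cores, against 33.9% of the windows. It was highest in the core of chromosome 7 with 10.3% and lowest in the core of chromosome 11 with 0.8%. With bins of 5 kb, the share was higher in 4 cores only. Among bins that held a read, the cores still had fewer reads, 60.6 ± 4.19 per kb against 72.99 ± 2.72 per kb in the rest, and again in 12 of 12, beside 44.4% of windows. The 3 longest runs of read-free bins covered 16 kb at chr7:12188001-12204000, 16 kb at chr7:12209001-12225000 and 11 kb at chr3:18930001-18941000 (TIGR release 5). The paired-end library had 181, 186 and 98 calls in these runs, so all 3 were covered with nucleosome calls.

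The opposite end of the range was on chromosomes 4 and 1. The 10-kb bin with the most reads of all cores, chr4:9320001-9330000, held 2006 reads, 3.44 times the median of 583 over core bins and 2.72 times the median of 738 over all bins. Repeated reads, counted as those beyond the first at the same base and strand, made up 25.2% of it. The next 2 bins were chr1:16330001-16340000 with 1545 reads and chr4:9330001-9340000, adjacent to the first, with 1521 reads. All 3 had between 107 and 109 calls. The longest stretches without a call were shorter than a bin. Adjacent calls were 2583 bp apart at chr2:13389974-13392557, 2228 bp apart at chr12:11995396-11997624 and 2061 bp apart at chr5:11904320-11906381. Those gaps held 2, 3 and 6 reads, so few reads of the single-end library fell there either.

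Such repeated reads made up a slightly larger share in the cores, 15.29 ± 0.417% against 14.5 ± 0.159% in the rest (SD, 12 chromosomes). The share was higher in 12 of 12 cores and in 41.8% of the windows. It ranged from 14.7% in the core of chromosome 7 to 16.0% in the core of chromosome 4.

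Protected DNA was nearly the same length in the cores as elsewhere. The length was read as the most frequent end-to-end distance between the 5' end of a forward read and that of a reverse read, which marks both edges of a nucleosome core. It was 149 bp pooled over the cores and 148 bp pooled over the rest. Single cores ranged from 148 bp (chromosomes 3 and 8) to 152 bp (chromosome 5), and 10 were longer than the 148 bp of their chromosome while the other 2 were equal to it. Of the windows, 32.7% were longer, and their SD was 2.59 bp, larger than the difference of 1 bp. Without chromosome 2, the pooled core length was 151 bp, so that value moved by more than its difference from the rest. Without any other single chromosome it was 149 bp. The count of longer cores also depended on the setting. It was 6 longer and 3 shorter with repeated reads counted once, and 6 longer and 2 shorter with a core half-width of 0.25 Mb. With a half-width of 1 Mb the pooled lengths were equal.

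Lengths around this maximum were less frequent in the cores. The frequency at 146 to 150 bp, relative to the level at 400 to 900 bp, was 1.61 ± 0.0557 in the cores and 1.76 ± 0.0171 in the rest (SD, 12 chromosomes). It was lower in all 12 cores, against 48.5% of the windows, and lower than every window of the chromosome in 7. The core of chromosome 3 was the lowest with 1.55. Chromosome 4 had the highest core value, 1.73, against 1.74 in its rest, so the values were almost equal there. The cores of chromosomes 4, 5 and 7 had their maximum at 151, 152 and 151 bp, outside the range in which the height was read. Windows with as few reads as the cores, 45 windows of 50.7 to 64.7 reads per kb, had heights of 1.65 to 1.91 with a median of 1.71.

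Opposite-strand 5' ends at short distances, 20 to 50 bp, were more frequent in the cores. Relative to the level at 400 to 900 bp, their frequency was 1.34 ± 0.0672 in the cores and 1.18 ± 0.0883 in the rest (SD, 12 chromosomes). It was higher in 11 of 12 cores and in 38.0% of the windows, and higher than in the flanks in 12 of 12 cores. It was above every window of the chromosome in 7 cores (6 with windows tiled from the core edges). Single windows had a median of 1.14 and an SD of 0.559, larger than the difference. The highest of the windows tiled from the core edges reached 11.4. Same-strand 5' ends at these distances had 1.29 ± 0.0209 in the cores and 1.31 ± 0.00494 in the rest, and were lower in 10 of 12 cores and in 48.0% of the windows.

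Spacing between nucleosomes, read as the first maximum of distances between 5' ends on one strand, was 180 bp in the cores and 180 bp in the rest. The next 2 maxima were at 370 and 562 bp in the cores and at 374 and 569 bp in the rest. Single cores ranged from 174 bp (chromosome 12) to 193 bp (chromosome 7), where windows had an SD of 4.37 bp. A core had the longer spacing on 6 chromosomes, the shorter on 5 and the same on 1, beside 42.1% of windows with a longer one. No direction was shared by the cores. Subtracting the protected length left 31 bp between nucleosome cores in the centromere cores and 32 bp in the rest. The contrast of the array, the height of the spacing maximum over the lowest level after it, was 1.18 in the cores and 1.19 in the rest. It was lower in 9 of 12 cores (7 of 12 against the flanks) and in 31.6% of the windows, with the lowest value in the core of chromosome 8 (1.16) and the highest in that of chromosome 1 (1.199).

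**Figure D4:**
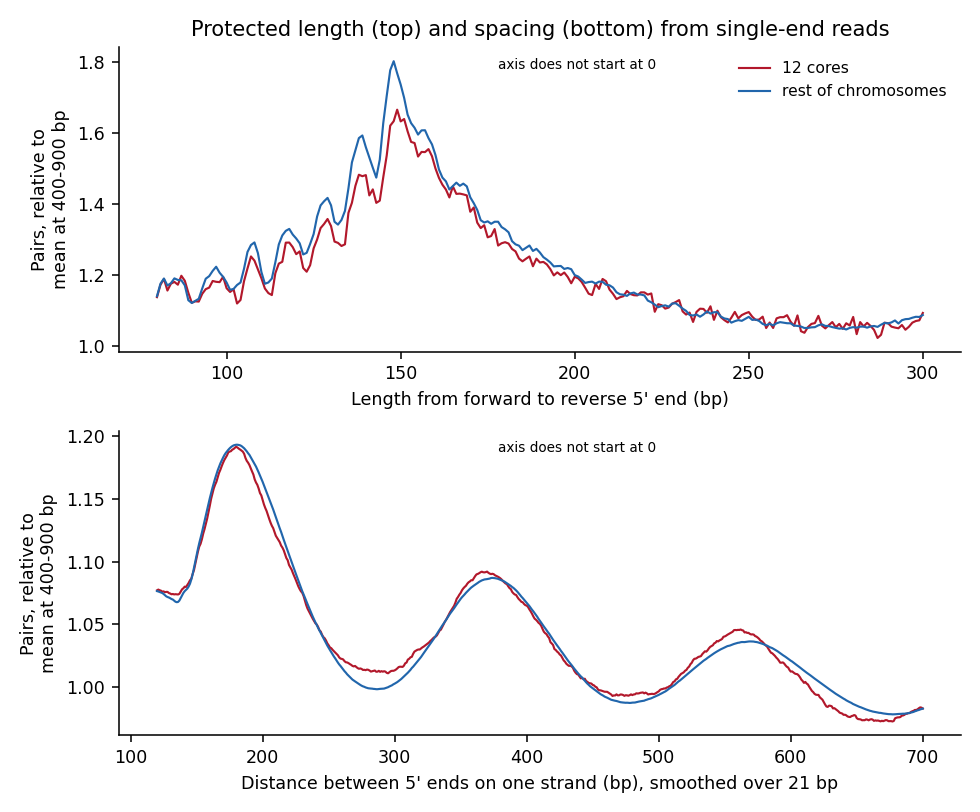
Frequency of lengths from forward to reverse 5' ends (top) and of distances between 5' ends on one strand (bottom, smoothed over 21 bp) in the 12 cores and in the rest, relative to the mean at 400 to 900 bp (axes not from 0). The top maximum is at 149 bp in the cores and 148 bp in the rest, lower in the cores, and the first maximum of the bottom panel is at 180 bp in both.

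Nucleosome calls lay closer together in the cores. The mean distance between centres of adjacent calls was 99.98 ± 2.39 bp in the cores and 108 ± 0.308 bp in the rest (SD, 12 chromosomes). This mean follows from the call density given above and is not a separate result. Calls that overlapped the next call made up 80.9 ± 1.14% of calls in the cores and 76.2 ± 0.247% in the rest. That share was higher in 12 of 12 cores, against 43.3% of windows, and was above every window of the chromosome in 11. Chromosome 7 had the highest share in its core (82.9%) and the core of chromosome 11 the lowest (78.3%). A call covers 120 bp, so that overlapping calls have centres closer than this.

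Among distances of 120 to 250 bp, which leave out most overlapping calls, the median distance was 156 ± 1.66 bp in the cores and 159 ± 0.452 bp in the rest. It was shorter in 12 of 12 cores, with values from 153 bp (chromosome 8) to 158 bp (chromosomes 1, 9 and 11), while 28.9% of windows were shorter than the rest of their chromosome. This difference depended on which calls were used. With the 50% of calls of highest score the mean difference was -0.833 bp, and the core was shorter on 7 of 12 chromosomes. With calls that overlapped no other the means were 169.4 bp in the cores and 169.5 bp in the rest, a difference of -0.0833 bp, and 5 of 12 cores were shorter.

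The score that nucleR gave to each call had a median of 0.480 ± 0.0179 in the cores and 0.471 ± 0.0148 in the rest (SD, 12 chromosomes). It was higher in all 12 cores, by a mean of 0.00897 ± 0.00818, beside 41.2% of windows. A single core, on 1 chromosome, was above every window. The scale of the score differed between chromosomes. The share of calls in the highest 10% of the genome ranged from 0.531% to 15.6% between the rests of the chromosomes, so scores were compared only within a chromosome.

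The single-end reads of replicate 1 were next counted at the calls of replicate 2. Calls in the cores had 3.23 ± 0.260 read centres within 20 bp of the call centre and calls in the rest had 4.24 ± 0.185 (SD, 12 chromosomes). The number was lower in 12 of 12 cores, against 42.7% of the windows, and cores also had fewer reads in all. Relative to the read density of the same region, the calls of the cores were enriched 1.37 ± 0.0259 times and those of the rest 1.45 ± 0.00557 times. That enrichment was lower in 12 cores and in 43.6% of windows, and was below every window of the chromosome in 8 (7 with windows tiled from the core edges). It was lowest in the core of chromosome 6 (1.33) and highest in that of chromosome 10 (1.41). In the 45 windows of the same read density, it ranged from 1.39 to 1.49. A call of one replicate thus had fewer reads of the other in the cores, also relative to depth. These are values per call, and the cores had more calls per kb. Whether a read of the cores lay at a call less often was not tested.

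Score and read number were also less closely related across calls. Spearman's rho had a median of 0.243 over the 12 cores and 0.420 over the rests, and was lower in every core than in the rest of its chromosome, beside 40.9% of windows. This is a correlation across 9659 to 10346 neighbouring calls of each core, which are not independent and share a library. The core of chromosome 9 had the lowest rho (0.0779). That of chromosome 11 had the highest (0.357). In the 45 windows with as few reads as the cores, rho was between 0.236 and 0.409, with a median of 0.314.

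In parts of the cores, low read number and high call number occurred together. In 4 of 12 cores, of chromosomes 1, 2, 6 and 9, the 100-kb bin with the fewest reads was also that with the most calls. The same count was not made for windows outside the cores, so it has no background. On chromosomes 7 and 4 the bin with the fewest reads had 11.4 and 10.9 calls per kb, more than the core as a whole. On chromosomes 3, 5, 8, 10, 11 and 12 it had fewer calls than the core as a whole. Its values there were 10.06, 9.67, 8.85, 8.86, 9.53 and 9.30 calls per kb. The bin just above the midpoint of chromosome 2 had 16.5 reads and 12.5 calls per kb. Stretches of this kind were then collected as read-poor blocks, at least 4 neighbouring 10-kb bins with fewer than 150 reads each. This definition was made after these values had been seen. It used only the single-end reads, so that read number is not a result, and the calls inside the blocks are of the other library. The read pairs behind the calls were not analysed here, so the depth of that library in the blocks is unknown. The cores held 11 such blocks on 8 chromosomes, 660 kb in all with 5.88 reads per kb. The rest held 76 blocks on 12 chromosomes, 5150 kb in all with 5.72 reads per kb.

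Blocks of the cores were rich in calls and blocks of the rest were poor in them. The density was 11.5 calls per kb in core blocks and 8.64 calls per kb in blocks of the rest. Single blocks ranged from 8.88 to 13.05 calls per kb in the cores, with a median of 11.5, and from 4.32 to 13.03 in the rest, with a median of 8.83. More than 10 calls per kb were found in 9 of 11 core blocks and in 5 of 76 blocks of the rest (6.58%). The longest block of the cores covered 150 kb at chr7:12120001-12270000 and held 400 reads and 1729 calls. It includes both 16-kb runs without a read. The block with the most calls per kb, chr2:13710001-13750000, held 397 reads and 522 calls in 40 kb. Outside the blocks, call density was 9.92 per kb in the cores and 9.28 per kb in the rest, and was still higher in 12 of 12 cores.

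Calls in the core blocks formed a regular ladder. Distances between call centres were taken between any 2 calls and not only neighbours. Each maximum was read as the highest point in a preset range near a multiple of 80 bp. Its position was therefore partly set by that range, and its height was not. In core blocks these maxima were at 77, 160, 240, 320, 404 and 481 bp. At 160 bp the frequency was 2.70 times the mean at 300 to 800 bp, and at 320 bp it was still 2.05 times. In blocks of the rest, the highest maxima were at 64 and 165 bp, with 1.60 times the mean at 165 bp and 1.102 times at 305 bp. The maxima of the core blocks thus stayed high at distances where the curve of the other blocks was close to its mean. Outside the blocks, cores and rest had nearly the same distances, with highest maxima at 63 and 164 bp in the cores and at 63 and 166 bp in the rest.

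**Figure D5:**
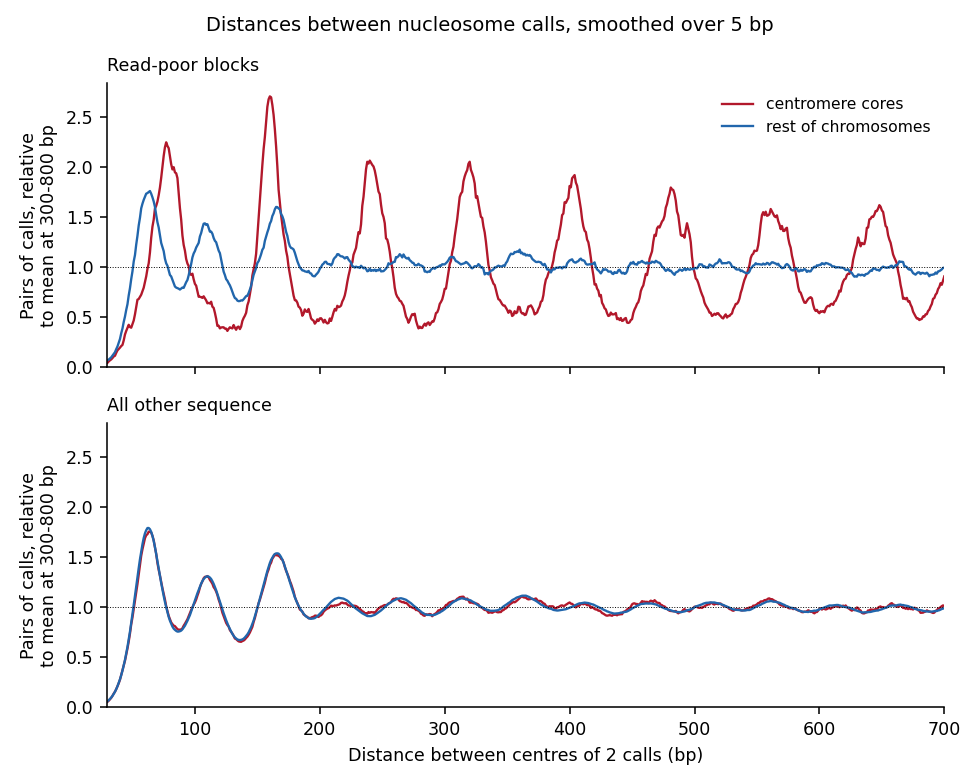
Frequency of distances between centres of any 2 nucleosome calls, smoothed over 5 bp and relative to the mean at 300 to 800 bp, in read-poor blocks (top) and in all other sequence (bottom) of the cores and of the rest. Core blocks have repeated maxima at 77, 160, 240, 320, 404 and 481 bp, each the highest point in a preset range. The blocks of the rest reach only 1.102 times the mean at 305 bp.

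Most neighbouring calls of the core blocks were separated by one step of this ladder. Of adjacent distances, 70.5% were between 60 and 100 bp in core blocks and 44.1% in blocks of the rest. The share by block ranged from 45.5% to 86.7% in the cores and from 25.6% to 53.5% in the rest. It was above 55% in 9 of 11 core blocks and in 0 of 76 blocks of the rest. The limit of 55% was not planned beforehand and lies just above the highest block of the rest, so this split is not independent of these values. The share was highest in the 150-kb block of chromosome 7 (86.7%), followed by the blocks at chr9:2810001-2870000 (82.0%) and chr9:2750001-2800000 (78.9%), and by the block at chr12:12020001-12060000 (78.0%). The 2 core blocks within the range of the rest were chr5:12640001-12680000 with 45.5% and chr10:8380001-8420000 with 45.7%, and these were also the 2 with fewer than 10 calls per kb. The 9 blocks above 55% were on chromosomes 1, 2, 4, 5, 7, 9 and 12, and all had more than 10 calls per kb.

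The maximum near 160 bp was not exactly the same in all blocks. In single core blocks it lay between 155 and 170 bp, at 163 bp on chromosome 7, 158 and 160 bp on chromosome 9, 162 bp on chromosome 12 and 155 and 158 bp on chromosome 2. Its height was above 2 times the mean in 8 of 11 core blocks (72.7%) and in 24 of 76 blocks of the rest (31.6%). When the blocks of each chromosome were left out in turn, the pooled maximum stayed at 160 or 161 bp. The cores of chromosomes 3, 6, 8 and 11 had no read-poor block, and their call density was nevertheless above that of the rest.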

How the data were processed

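Members, lists and directions of comparison were chosen with earlier results of these data known. Per the labels and the study's methods, the authors aligned 36-bp single-end reads to TIGR release 5 with MAQ (1 mismatch, unique positions; version not given in the sources used here) and deposited read positions, pooled over technical replicates. From paired-end fragments of up to 200 bp, trimmed to the middle 40 bp, the authors called nucleosomes with nucleR; the deposited list gives 120-bp calls, each with a score whose scale is not given in the sources used here. The read pairs behind the calls also needed unique positions, so repeats may be incomplete in both. Whether the same sequence was lost from single reads and from read pairs was not tested. A second list, identical to the first, was not used, and 0 columns were of another series.

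Reads were reduced to their 5' ends and calls to their centres (start + 60 bp), in numpy 2.4.6 and numba 0.67.0 under Python 3.11.15, with pandas 2.3.3 for tables, scipy 1.17.1 for intervals and matplotlib 3.10.9 for figures. Lengths counted both end bases. Protected length was the unsmoothed maximum at 80 to 300 bp; its height was read at 146 to 150 bp rather than at each maximum, a choice made after the data were seen. Spacing was the maximum at 150 to 230 bp after smoothing over 21 bp, and contrast used the lowest level up to 330 bp. Read centres lay 73 bp inside 5' ends. Enrichment at calls was relative to the read density of the region. Depth was 71.3 reads and 9.29 calls per kb over the genome. Named were all cores for densities, the highest and lowest core for other measures, the 3 richest 10-kb bins, and the 3 longest read-free runs and gaps; read-poor blocks were named after their values were seen. No p-values were computed, because each form had 1 library and regions of a library are not replicates. Scripts were tested on simulated data. Alternatives covered core width, the sequence compared, single chromosomes, repeated reads, bins, smoothing, distance ranges and call subsets.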

Additional observations from a re-analysis of the deposited data

How the results depend on the processing

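No paired analysis was possible because each form of the data had 1 library and no groups of samples were compared. Of 201 alternatives listed at the start, 189 moved a difference between core and rest by less than its SD over chromosomes. Of the others, 11 moved it by more and 1 turned its direction. Of 63 added after seeing the data, 58 moved a difference by less and 5 by more. For read-poor blocks the SD was over single core blocks. Many of the alternatives left out a single chromosome. Where a difference was a mean over chromosomes, such a run could not move it by its SD. Part of the 189 and of the 58 was therefore fixed in advance. Call density, higher by 0.11 (log2) in the cores, was -0.37 with calls that overlapped no other, and higher by 0.175 with the 50% of calls of highest score, by 0.168 with those 50% chosen on each chromosome and by 0.0692 against the flanks. Call spacing (-3.0 bp) was -6.17 bp with distances of 100 to 300 bp, -0.833 bp with the 50% of highest score, -1.04 bp with those 50% chosen on each chromosome and -0.0833 bp with calls that overlapped no other. Against the flanks, the difference was -0.16 for read density and -0.20 for reads per call (both log2), 2.90 percentage points for overlapping calls and -0.0700 for the height at the protected length. Overlapping calls differed by 5.95 percentage points with a core half-width of 0.25 Mb, and repeated reads by 0.439 percentage points with 1 Mb. In read-poor blocks, calls differed by 1.56 per kb (2.81 as reported) with 2 bins under 300 reads, and adjacent distances of 60 to 100 bp by 42.2 percentage points (26.4 as reported) with 6 bins under 75 reads. Leaving out each chromosome gave 1 to 3 bp for protected length, with 3 bp without chromosome 2. The cause of these shifts was not tested.

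Read-free bins, array contrast, call score and read spacing kept their differences within the SD in every alternative run, but the number of cores on the same side changed. Read-free bins, higher by 2.93 points in 10 cores, were higher by 0.301 points and in 4 cores with 5-kb bins. Array contrast was lower in 9 cores (-0.0166) and in 7 against the flanks (-0.00585), and call score was higher in 9 to 12 cores. Single cores held 50662 to 64705 reads, and whether that depth sets the spread of their spacing and length was not tested.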

Other observations

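Strands were balanced. Forward reads made up 49.7% to 50.3% of the reads of single cores and 49.9% to 50.1% of those of single rests. The longest read-poor block outside the cores, 360 kb at chr1:14980001-15340000, held 382 reads and 1555 calls (4.32 per kb), the fewest calls per kb of all blocks.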
